A study of Homo sapiens with 24 samples.

Results

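SLC26A4 and 8 further anion transport genes were followed in sensory neuron cultures made from human pluripotent stem cells (hPSCs). These 9 genes are part of a table of 36468 gene entries, each was found there under its symbol with 1 entry, and all 9 passed the filter on low counts. They were chosen by their function in chloride and anion handling and selected on their levels and treatment differences in these same libraries, so that their values are given as a description, without a test. Each of the 24 libraries holds polyA RNA of a whole culture of wild-type H9WAO9 cells, a human embryonic stem cell line taken through vagal neural crest spheroids to sensory neurons. In each of 6 differentiation batches, 1 culture received the vehicle (bovine serum albumin in PBS), 1 received TGF-β (2 ng/ml), 1 received IL-4+IL-13 (IL-4 at 10 and IL-13 at 3 ng/ml) and 1 received IL-6, whose dose and duration the labels do not give. The other treatments lasted 5 days. All cultures come from 1 cell line and 1 protocol, and only a part of their cells are neurons.

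Intracellular chloride sets whether the opening of chloride channels excites or inhibits a neuron. Cation-chloride cotransporters of the SLC12 family carry chloride into the cell (SLC12A2, also called NKCC1) or out of it (SLC12A5, also called KCC2, found mainly in neurons), and peripheral sensory neurons are known for keeping their chloride high. Exchangers of the SLC26 and SLC4 families swap chloride for bicarbonate, iodide or sulfate, and the anoctamins include chloride channels opened by calcium. SLC26A4 encodes pendrin, an exchanger of the inner ear, thyroid and kidney that is also known in airway epithelium under type 2 cytokines.

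The libraries held between 33342682 and 39817784 counted reads, with a median of 35775126. Neuron markers were present in every library, and the summed normalized counts of 7 of them ranged from 43054 to 199548. The markers of pluripotent cells, POU5F1 and NANOG, had at most 1 and 5 counts. SOX10, which marks glial precursors, had between 3 and 27 counts, whereas the fibroblast genes COL1A1 and COL1A2 had at least 25627 and 58894 counts in each library, so the cultures were mixed. Batch 1 stood apart, with neuron markers at 43054 to 74675 against 84161 or more in the other batches. In addition, the vehicle library of batch 2 resembled the other libraries of its batch poorly. Over 20962 genes with the group mean removed, its mean correlation with the treated libraries of batch 2 was 0.035, against 0.43 with those of batch 4. The vehicle library of batch 4 showed the reverse, at 0.15 with its own batch and 0.40 with batch 2. Results that rest on these libraries are given with and without them.

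SLC26A4 lies on chromosome 7 (107660828 to 107717809, plus strand, GRCh38.p14). The 250 bases before its start are shown because they are the promoter sequence of the gene that differed most between the groups. In this RefSeq sequence, chr7:107660578-107660827 on the plus strand, the capitals mark a TATAAA motif:

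SLC26A4 promoter: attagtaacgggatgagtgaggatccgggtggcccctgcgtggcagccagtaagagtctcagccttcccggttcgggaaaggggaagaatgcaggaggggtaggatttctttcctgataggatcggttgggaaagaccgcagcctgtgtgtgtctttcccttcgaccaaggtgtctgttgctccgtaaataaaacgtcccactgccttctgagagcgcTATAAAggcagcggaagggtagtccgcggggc

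The motif begins 32 bases before the annotated start. TATAAA, searched on both strands, was found in 11.5% of 35116 promoter windows of 300 bases (250 before to 50 after the start). IL-4 and IL-13 signal through STAT6, which binds to TTC and GAA separated by 4 bases, a palindromic pattern that is found on both strands by a search of either. No such motif lay in the 300-base windows of SLC26A4 or ANO1, and 6.44% of all windows held 1. Within 3000 bases before the start, SLC26A4 and ANO1 held 2 each, as did ANO6 and SLC12A2, while SLC26A2, SLC26A6 and SLC12A5 held 1 each and SLC4A3 held 0. Those of SLC26A4 and ANO1 are shown in 30-base stretches with the motif in capitals, as the plus-strand GRCh38 sequence around the pattern of the transcription factor that these cytokines activate:

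SLC26A4, 998 bases before the start (chr7:107659830-107659839): actcattcacTTCTCAGGAAaacgcacatg

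SLC26A4, 2658 bases before the start (chr7:107658170-107658179): atgcatctatTTCTTTGGAAagaagtcctg

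ANO1, 2111 bases before the start (chr11:69983796-69983805): gctgaagggtTTCATCCGAAcgcaacttaa

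ANO1, 2355 bases before the start (chr11:69983552-69983561): cagcgtggggTTCCCCAGAAaataagcagg

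Of 35116 windows of 3000 bases, 53% held this motif, so that its presence is common and is given as a description of the sequence. The start used for ANO1 lies inside the annotated span of the gene (chromosome 11, 69965997 to 70189530), which has earlier starts. The starts used for ANO6, SLC4A3 and SLC26A6 also lie inside the spans of those genes. Their motif counts hold for the starts used. Both motifs of SLC26A4 and its promoter window also lie within SLC26A4-AS1, an antisense long noncoding RNA gene (107656516 to 107661798). The strandedness of the counting is not given in the sources used here. Reads of SLC26A4 and of this gene in their shared stretch therefore cannot be told apart. SLC26A4-AS1 has no entry under its symbol in the deposited counts, so it was not analysed.

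SLC26A4 was close to the detection limit without IL-4+IL-13. Its raw count in the vehicle libraries was 4, 5, 0, 12, 8 and 5 in batches 1 to 6. With IL-4+IL-13 the counts were 304, 29, 136, 160, 147 and 182, and every one of these libraries lay above all 18 others. With TGF-β the counts were 8, 0, 7, 9, 14 and 10, and with IL-6 they were 0, 0, 3, 5, 5 and 7. These ranges overlapped that of the vehicle. A count of 0 allows up to 3 reads, out of 36363095 in the vehicle library of batch 3, and this limit covers counting error only.

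On the scale of counts normalized by DESeq2 size factors, the lowest, median and highest values of SLC26A4 were 0, 4.62 and 10.9 in vehicle and 27.8, 148 and 286 with IL-4+IL-13. The fitted log2 fold change of IL-4+IL-13 against vehicle was 4.76 ± 0.54 (SE, 6 batches), a 27.05-fold difference. Every batch showed the same direction, with differences in level (log2 of the normalized count + 1) from 2.29 in batch 2 to 7.22 in batch 3. The size of a difference that involves a count of 0, as in batch 3, depends on the added 1. Without batch 1 the log2 fold change was 4.44, without batch 2 it was 5.08, and without the vehicle libraries of batches 2 and 4 it was 5.55. Against the other cytokines, SLC26A4 was higher under IL-4+IL-13 by 4.27 ± 0.51 (TGF-β) and 5.53 ± 0.57 (IL-6) on the log2 scale, comparisons that share the IL-4+IL-13 libraries. For TGF-β against vehicle the log2 fold change was 0.49 ± 0.58, with 4 of 6 batches higher. For IL-6 it was -0.78 ± 0.65, with 4 of 6 batches lower. Without the vehicle libraries of batches 2 and 4 these values were 1.25 and -0.02.

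**Figure D1:**
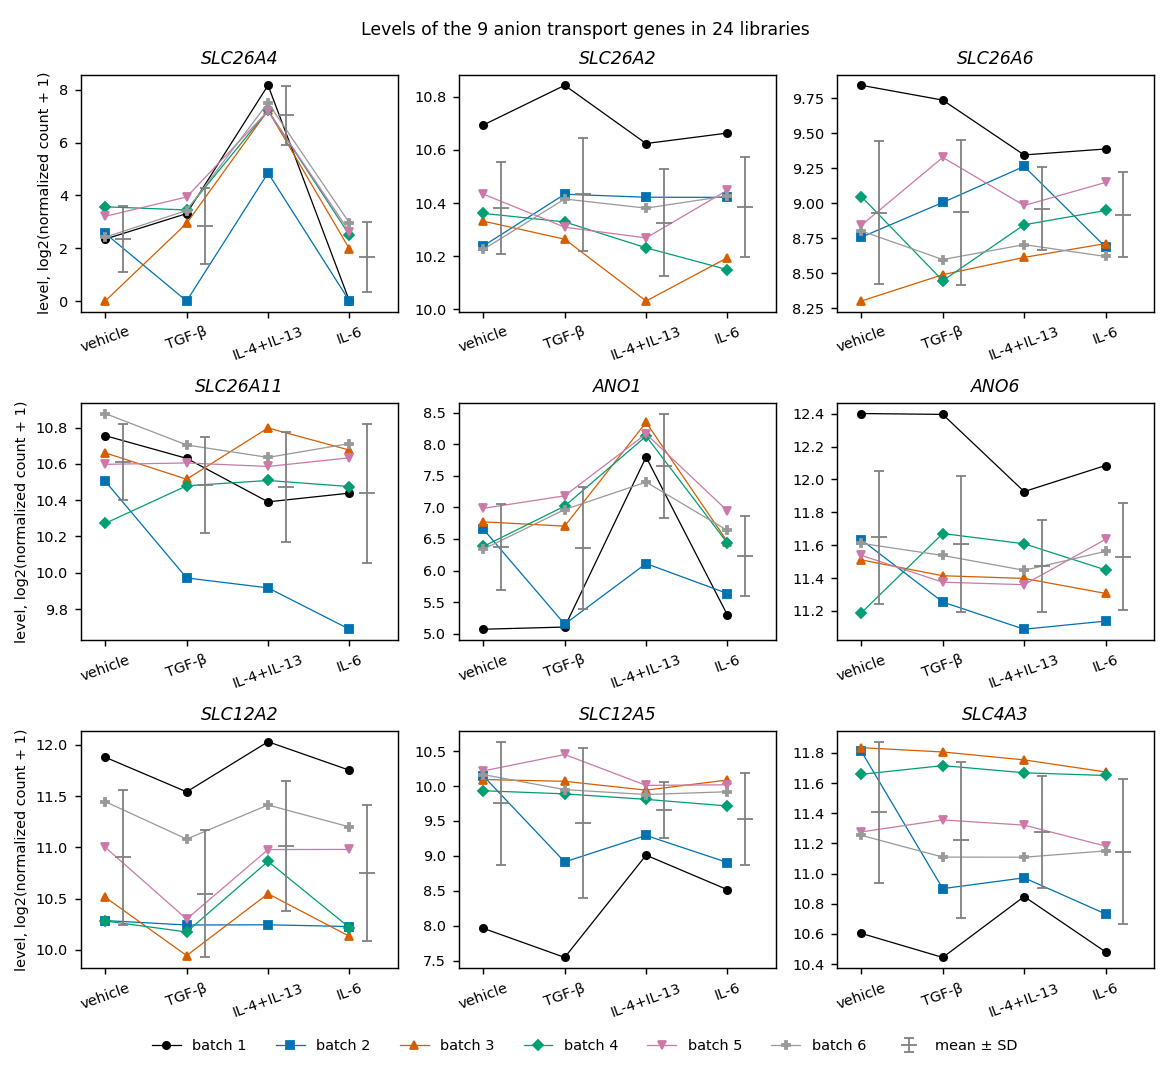
Level of each gene (log2 of the normalized count + 1) in the 4 groups, with 1 line per batch and gray bars for the mean ± SD of 6 batches; the vertical scale differs between panels. SLC26A4 stands at 4.85 or more in all 6 IL-4+IL-13 libraries and at 3.94 or less in the 18 others, while the panels of the SLC12 and SLC4 genes are ordered mainly by batch.

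ANO1, which encodes the calcium-activated chloride channel TMEM16A of sensory neurons, secretory epithelia and smooth muscle, was the other gene of this group with a fold change beyond the threshold under IL-4+IL-13. Its normalized counts in the vehicle libraries had a lowest, median and highest value of 32.6, 91.1 and 126. With IL-4+IL-13 they were 68.1, 250 and 324, so the groups overlapped. The log2 fold change was 1.33 ± 0.30 (SE), 2.51-fold, and 5 of 6 batches were higher. Batch 2 was the exception, at 99.8 in vehicle and 68.1 with IL-4+IL-13. The vehicle library of this batch is the one that resembled batch 4, and the TGF-β and IL-6 libraries of batch 2 held 34.5 and 48.7. Without that vehicle library the log2 fold change was 1.63, and without batch 1, where ANO1 was raised most (from 32.6 to 221), it was 1.01. Against TGF-β and IL-6, ANO1 was higher under IL-4+IL-13 in 6 of 6 batches, by 1.36 ± 0.29 and 1.53 ± 0.30 on the log2 scale. TGF-β itself gave -0.03 ± 0.29 and IL-6 -0.20 ± 0.29 against vehicle, and both turned positive (0.27 and 0.11) without the vehicle libraries of batches 2 and 4.

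With IL-4+IL-13, 2 of the 9 genes (SLC26A4 and ANO1) were called in edgeR, where a call means that the adjusted p was below 0.05 and that the log2 fold change exceeded 1 in size. Among all 29377 entries tested, 109 were called (0.371%). Since the 9 genes were selected on this contrast, nothing is read from that count or from the calls themselves. SLC26A4 was the 1 gene of the 9 whose IL-4+IL-13 libraries all lay above all vehicle libraries, as did 0.194% of the entries tested. With TGF-β, 0 of the 9 were called, against 42 of all entries (0.143%). With IL-6, 0 of the 9 were called, and 0 of all entries (0%) in edgeR. Of all entries, 1400 (4.77%) fell below an unadjusted p of 0.05 with IL-6, and 120 were called by DESeq2. DESeq2 also called 0 of the 9 genes with TGF-β and with IL-6.

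The cation-chloride cotransporters moved less. SLC12A2 had normalized counts with a lowest, median and highest value of 1245, 1755 and 3764 in vehicle, 985, 1236 and 2979 with TGF-β, 1213, 1939 and 4180 with IL-4+IL-13, and 1122, 1609 and 3448 with IL-6. The groups overlapped, and batch 1 and batch 6 lay above the rest in each of them. Within batches, TGF-β was below vehicle in 6 of 6, by between 0.04 (batch 2) and 0.70 (batch 5) in log2 level. The log2 fold change was -0.35 ± 0.09 (SE), a ratio of 0.783, and it was -0.43 without the vehicle libraries of batches 2 and 4. IL-6 was also below vehicle in 6 of 6 batches, with a log2 fold change of -0.15 ± 0.09, whereas IL-4+IL-13 was higher in 3 and lower in 3 (0.12 ± 0.09). Between the cytokines themselves, SLC12A2 was higher with IL-4+IL-13 than with TGF-β in 6 of 6 batches, with a log2 fold change of 0.47 ± 0.09.

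SLC12A5 separated the batches more than the treatments. In batch 1 its normalized counts were between 186 and 515, whereas in batches 3 to 6 they lay between 839 and 1398. In batch 2 the vehicle library held 1131, but the libraries with TGF-β, IL-6 and IL-4+IL-13 held 481, 479 and 626. The log2 fold changes were -0.28 ± 0.20 with TGF-β, -0.26 ± 0.20 with IL-6 and -0.11 ± 0.20 with IL-4+IL-13. Each treatment was below vehicle in 5 of 6 batches, and with IL-4+IL-13 the exception was batch 1. Without the vehicle libraries of batches 2 and 4 the fold changes were -0.04, -0.02 and 0.13. The direction for IL-4+IL-13 thus turned and the other 2 shrank to near 0. In batches 3 to 6 alone they were -0.01, -0.16 and -0.19, and without batch 1 the value for IL-4+IL-13 was -0.34. For SLC12A5, 80.9% of the variance in level was between batches and 2.28% between groups.

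The ratio of SLC12A2 to SLC12A5, a common measure of the chloride setting of neurons, was computed within each library per transcript length. Each library is a mixed whole culture, so this ratio covers all its cells and is not that of the neurons alone. The log2 ratio in vehicle was 0.96 ± 1.41 (SD, n = 6), with a lowest, median and highest value of -0.05, 0.41 and 3.73. It was 0.89 ± 1.56 with TGF-β, 1.17 ± 0.87 with IL-4+IL-13 and 1.04 ± 1.10 with IL-6. Thus SLC12A2 transcripts were about level with or above those of SLC12A5 in most libraries, and the batches differed far more than the groups. In batch 1 the ratio lay between 7.12 and 14.03, and in batches 2 to 6 between 0.790 and 2.54. Both genes contributed to the high ratio of batch 1, where the mean level of SLC12A2 was 11.80 (10.25 to 11.28 in the other batches) and that of SLC12A5 was 8.26 (9.31 to 10.17). Batch 1 also had the lowest sums of the neuron markers. In a whole culture, fewer neurons and less SLC12A5 per neuron cannot be told apart. Against vehicle, the mean within-batch difference of the log2 ratio was -0.07 ± 0.72 with TGF-β, 0.08 ± 0.64 with IL-6 and 0.21 ± 0.61 with IL-4+IL-13 (SD, n = 6), each smaller than the spread between batches. IL-4+IL-13 was higher in 5 of 6 batches, and batch 1 was the exception at -0.90. Batch 2, with the vehicle library that stood apart, gave the highest difference for each treatment, and without this batch the means were -0.32, -0.15 and 0.09.

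**Figure D2:**
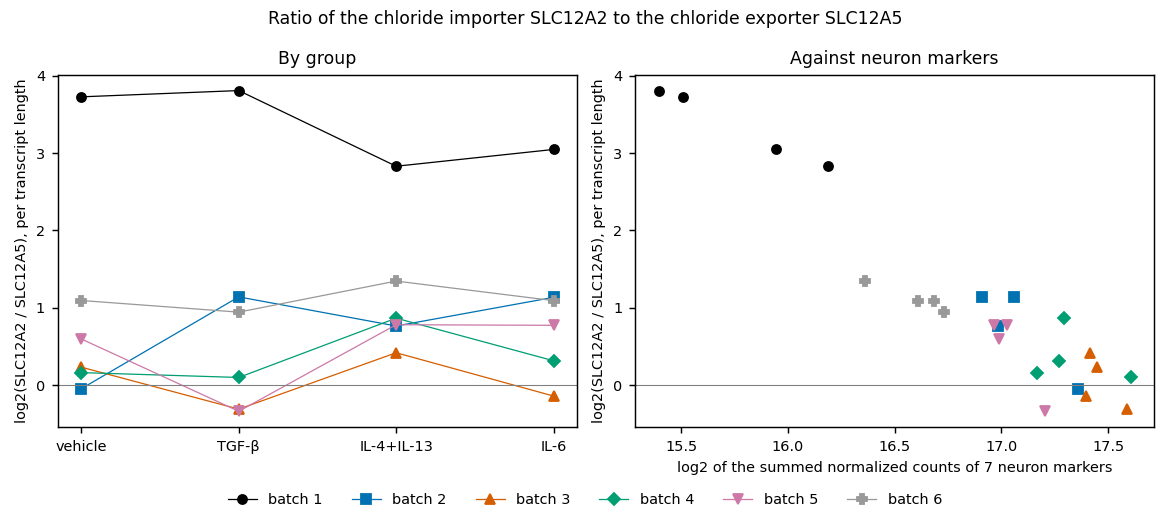
Left, log2 ratio of SLC12A2 to SLC12A5 per transcript length in the 4 groups, with 1 line per batch. Right, the same ratio against the log2 of the summed normalized counts of 7 neuron markers, with 1 point per library. The 4 libraries of batch 1 lie at 2.83 to 3.81 and hold the lowest marker sums.

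The exchangers other than SLC26A4 differed little between groups. SLC4A3, an exchanger of chloride and bicarbonate found in brain and heart, had normalized counts of 1555, 2855 and 3651 (lowest, median, highest) in vehicle. Its log2 fold changes were -0.20 ± 0.11 with TGF-β, -0.14 ± 0.11 with IL-4+IL-13 and -0.27 ± 0.11 with IL-6, and IL-6 was lower in 6 of 6 batches. Batch 2 carried most of this, with 3591 in vehicle and between 1700 and 2007 in its treated libraries. Without the vehicle libraries of batches 2 and 4 the values were -0.04, 0.02 and -0.12. SLC26A2, a sulfate transporter, was the steadiest of the 9, between 1045 and 1837 normalized counts in all 24 libraries and with log2 fold changes of 0.05 ± 0.06 (TGF-β), 0.00 ± 0.06 (IL-6) and -0.05 ± 0.06 (IL-4+IL-13). SLC26A11, a sodium-independent sulfate transporter, ranged from 824 to 1880. Its lowest values were those of the treated libraries of batch 2 (824 to 1003), whose vehicle library held 1452, and its log2 fold changes were -0.14 ± 0.09, -0.18 ± 0.09 and -0.14 ± 0.09 in the same order. Without that vehicle library they were -0.04, -0.08 and -0.04. SLC26A6, an exchanger of chloride with oxalate, bicarbonate and other anions, ranged from 314 to 918, highest in batch 1, and its log2 fold changes were between -0.02 and 0.02 with standard errors of 0.14.

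ANO6, a calcium-activated lipid scramblase with ion channel activity, differed little between groups as well. Its normalized counts had a lowest, median and highest value of 2333, 3049 and 5408 in vehicle and 2176, 2744 and 3890 with IL-4+IL-13. Batch 1 held the highest value in each group. The log2 fold change was -0.18 ± 0.09 with IL-4+IL-13, lower in 5 of 6 batches, and -0.01 in batches 3 to 6 alone. With TGF-β it was -0.05 ± 0.09 and with IL-6 -0.12 ± 0.09.

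**Figure D3:**
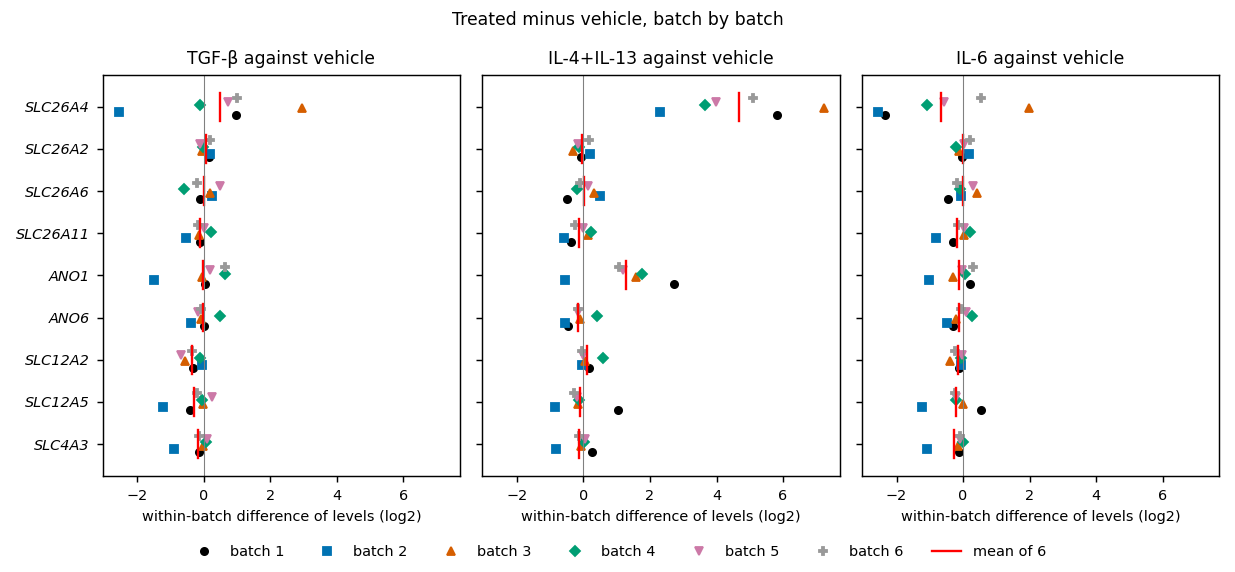
Difference in level (log2) between each treated library and the vehicle library of its batch for the 9 genes, with 1 symbol per batch and a red line at the mean of 6 batches. SLC26A4 lies between 2.29 and 7.22 in all batches with IL-4+IL-13, and ANO1 is above 0 in 5 of 6; batch 2 lies lowest for SLC12A5 and SLC4A3 with each treatment.

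Per kilobase of transcript (GENCODE v44 canonical transcripts), the order of the mean log2 values in vehicle, given here as normalized counts per kilobase (mean ± SD, n = 6), ran from SLC4A3 (680 ± 196), SLC26A11 (546 ± 77.3) and ANO6 (554 ± 178) through SLC12A2 (304 ± 147), SLC26A6 (198 ± 79.9), SLC26A2 (166 ± 21.02) and SLC12A5 (160 ± 59.3) to ANO1 (18.4 ± 6.70) and SLC26A4 (1.14 ± 0.790). Neighbours from SLC4A3 to SLC12A5 overlapped within 1 SD on the log2 scale, whereas ANO1 and SLC26A4 lay below by more than that. With IL-4+IL-13, SLC26A4 reached 32.9 ± 17.5 per kilobase, within 1 SD of ANO1 (46.9 ± 19.7), and remained last in the order. Its level under IL-4+IL-13 thus stayed below the vehicle means of the 7 genes ahead of ANO1.

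Over the 24 libraries, batch accounted for 70.4% to 87.3% of the variance in level of 7 genes. For SLC26A4 the shares were 12.4% between batches and 75.9% between groups, and for ANO1 39.9% and 39.7%. With the batch means removed, SLC26A4 and ANO1 correlated with r = 0.86 over the 24 libraries, and SLC12A5 and SLC4A3 with r = 0.80, and in each pair the libraries share their batch and treatment.

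The genes most like SLC26A4 were looked for among 16909 named entries with a mean count of at least 10, by Pearson r of the levels with the batch means removed, over 24 libraries that share 4 treatments. COL6A1, a collagen VI chain, came first (r = 0.93), followed by CCL26, the chemokine eotaxin-3 that attracts eosinophils (0.92), PFKP, a phosphofructokinase of glycolysis (0.91), DUOX2, an oxidase that makes hydrogen peroxide (0.90), AZIN2 (0.89), NABP1 (0.89), MMP28 (0.89) and TMEM235 (0.89). Their log2 fold changes under IL-4+IL-13 ranged from 0.60 ± 0.11 (AZIN2) to 7.86 ± 0.60 (CCL26), and under TGF-β none of the 8 went beyond 0.50 in either direction. For ANO1 the closest gene was ANKS1B (r = 0.94), which differed from vehicle by 0.78 ± 0.15 (log2) with IL-4+IL-13. For other genes of the group the closest were ZNF264 (SLC26A2, 0.80), DMPK (SLC26A6, 0.90), CCPG1 (ANO6, 0.96), CTNNAL1 (SLC12A2, 0.90), GRM7 (SLC12A5, 0.95) and SLC24A3 (SLC4A3, 0.95).

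**Figure D4:**
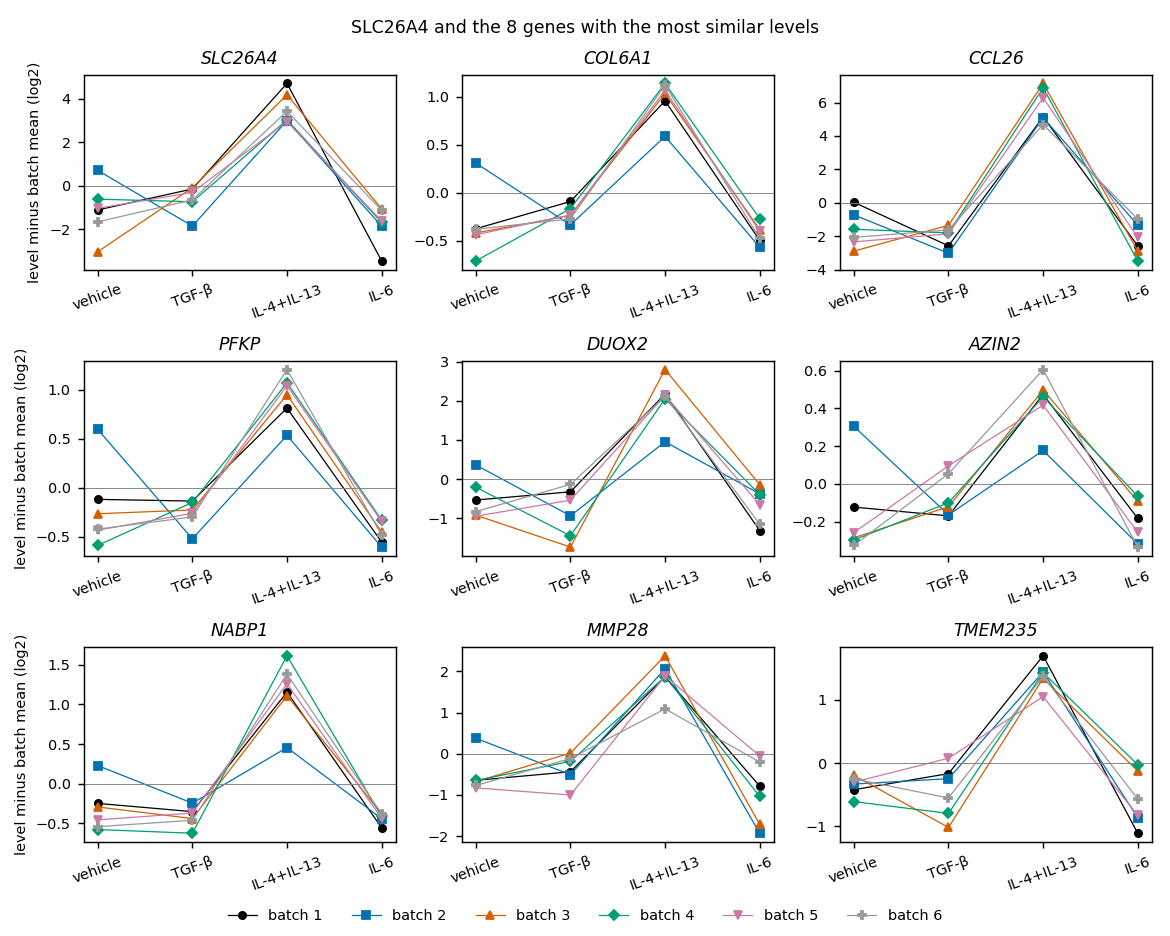
Level minus the mean of its batch (log2) for SLC26A4 and the 8 genes whose levels were most like it, in the 4 groups, with 1 line per batch. In each panel the mean of the IL-4+IL-13 libraries is the highest of the 4 groups, and the fitted log2 fold changes of the 8 range from 0.60 to 7.86.

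A list of 90 further anion transport genes was examined in the same fit, of which 87 passed the filter on low counts. The list was chosen with earlier results of these data known, and it includes a class of pendrin partners. Its counts and calls are therefore given as a description. With IL-4+IL-13, 2 of 87 were called (2 higher, 0 lower), beside 0.371% of all entries, and 19 fell below an unadjusted p of 0.05 in edgeR (21.8%, beside 9.1%). The median log2 fold change of the list was -0.08 against -0.01 for all entries. Of the 87 genes, 73 had a mean count of at least 10, as did 20962 of the 29377 entries. Those entries also include unnamed loci, so such shares compare unlike sets. The 2 genes were DUOX2 and DUOXA1, an oxidase and a maturation factor of the closely related DUOX1, both of the class of pendrin partners and iodide handling. DUOX2 had normalized counts of 4.12, 10.2 and 15.3 (lowest, median, highest) in vehicle and 18.2, 69.9 and 105 with IL-4+IL-13, without overlap. Its log2 fold change was 2.66 ± 0.37 (edgeR quasi-likelihood test, adjusted p = 0.000770), higher in 6 of 6 batches, and it was called in 16 of 16 alternatives. DUOXA1 had values of 0, 5.16 and 13.9 in vehicle and 15.3, 28.5 and 41.4 with IL-4+IL-13. Its log2 fold change was 2.40 ± 0.45 (edgeR, adjusted p = 0.0113), also in 6 of 6 batches, and it was called in 11 of 16 alternatives. The call was lost without batch 1, without batch 3, in batches 3 to 6, without the IL-6 libraries and without the batch term.

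The neighbouring genes of that system were chosen after their values were seen. DUOXA2, the maturation factor of DUOX2, had a count of 0 in all 6 vehicle and all 6 IL-6 libraries, 3 reads in 1 TGF-β library, and 8, 3, 18, 19, 11 and 4 reads with IL-4+IL-13, which did not pass the adjusted threshold (edgeR, adjusted p = 0.0642). DUOX1 had a log2 fold change of 0.57 ± 0.18, higher in 6 of 6 batches and not called. ANO4, a further anoctamin, was lower by the adjusted p of edgeR (0.0243) at -0.60 ± 0.12 on the log2 scale, short of the fold threshold. ANO4 has 2 entries in the table, of which the first is given.

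The other named genes of the list did not pass the test with IL-4+IL-13. CA4, a membrane-bound carbonic anhydrase, had a log2 fold change of 0.88 ± 0.22. CFTR, the cyclic AMP-gated chloride channel, had -0.84 ± 0.30, the muscle carbonic anhydrase CA3 -0.80 ± 0.22 and the anoctamin ANO9 -0.53 ± 0.23. Of these, CA4 was higher and the other 3 lower in 6 of 6 batches. In other classes the median log2 fold change with IL-4+IL-13 was 0.01 for the 7 other SLC12 cotransporters, 0.03 for the 9 other SLC4 transporters, -0.20 for the 9 ClC channels and exchangers and -0.11 for the 8 kinases that regulate cation-chloride cotransport.

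**Figure D5:**
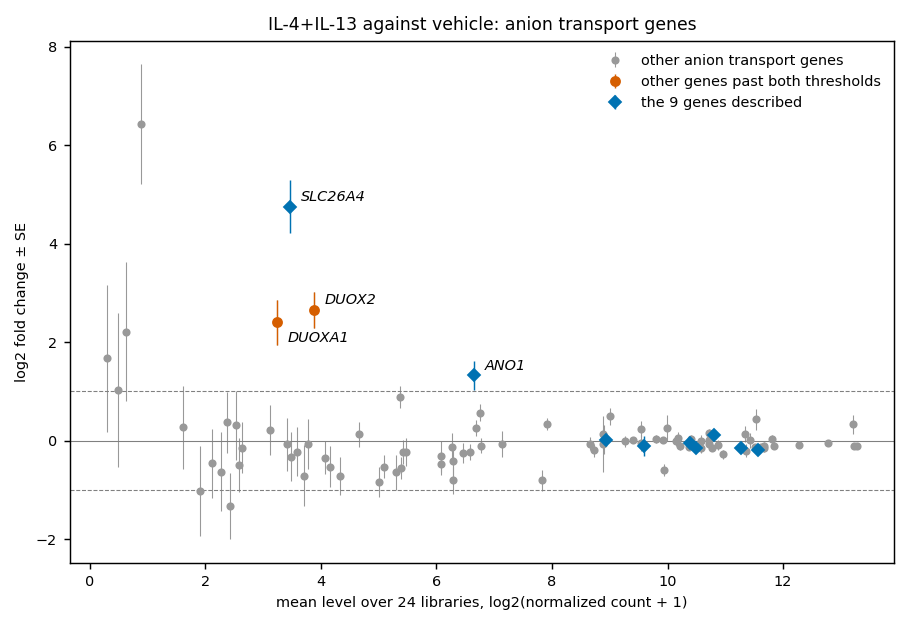
Log2 fold change ± SE of IL-4+IL-13 against vehicle for 87 listed anion transport genes (gray, with the 2 called genes in orange) and the 9 genes described (blue), against the mean level over 24 libraries; dashed lines mark 1 on the log2 scale in each direction. SLC26A4 (4.76), DUOX2 (2.66), DUOXA1 (2.40) and ANO1 (1.33) are labelled, and the highest gray point, unlabelled, is DUOXA2, which had 0 reads in vehicle and was not called.

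With TGF-β, 0 of the 87 listed genes were called in edgeR, 18 fell below an unadjusted p of 0.05 (20.7%, beside 7.29% of all entries), and 1, CA1, was called by DESeq2. By adjusted p alone 1 gene passed, SLC4A10, a sodium-coupled bicarbonate transporter of neurons, with a log2 fold change of -0.47 ± 0.09 (edgeR, adjusted p = 0.0377) and 6 of 6 batches lower. The named genes that moved the same way in all batches were SLC4A7 (0.27 ± 0.07), a sodium bicarbonate cotransporter, and SCNN1A (-1.21 ± 0.36), SLC5A5 (-1.19 ± 0.35) and ANO9 (-0.98 ± 0.23), none of which passed the test. SCNN1A encodes a subunit of the epithelial sodium channel and SLC5A5 the sodium-iodide symporter. SLC4A5, a sodium bicarbonate cotransporter chosen after its values were seen, had normalized counts with medians of 2895 in vehicle, 927 with TGF-β, 3746 with IL-4+IL-13 and 2847 with IL-6. It had a log2 fold change of -0.96 ± 0.21 with TGF-β (edgeR, adjusted p = 0.0637) and 0.44 ± 0.21 with IL-4+IL-13. Its vehicle values ran from 1342 to 8772, and batch 6 did not fall with TGF-β (7618 in vehicle, 7880 with TGF-β). Because of how SLC4A5 was chosen, its adjusted p-values only describe the fit. In the direct comparison of these cytokines it was higher with IL-4+IL-13 by 1.40 ± 0.22, in 6 of 6 batches (edgeR, adjusted p = 0.000904). With IL-6, 0 of the 87 were called, 6 fell below an unadjusted p of 0.05 (6.9%, beside 4.77% of all entries), and 1, again CA1, was called by DESeq2. Its mean count was 0.458. The named genes with the same direction in all batches were TTYH2 (0.33 ± 0.16), a chloride channel-related membrane protein, ANO9 (-0.62 ± 0.23), SLC26A1 (-0.36 ± 0.16) and CLCN4 (-0.30 ± 0.10), without passing the test. In batch 2, whose vehicle library stood apart, TTYH2 held 648 normalized counts in vehicle and 1396 with IL-6, and CLCN4 2231 and 1182.

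Markers of other cells were compared beside these results. Of 48 markers, 46 were tested, and 1 was called with IL-4+IL-13, the epithelial cadherin CDH1, with a log2 fold change of -1.89 ± 0.34. The summed normalized counts of the 7 epithelial markers ranged from 10068 to 32348 in vehicle and from 8067 to 19668 with IL-4+IL-13, so the groups overlapped, and KRT5 and TP63 had at most 16 and 24 counts. The immune markers PTPRC, CD68 and CSF1R were detected and AIF1 was at 0 in every library. The neuron markers ranged from 46663 to 178990 in vehicle and from 74675 to 174608 with IL-4+IL-13. The marker sums of other classes moved with IL-4+IL-13 in most batches. The summed normalized counts of the 7 fibroblast and mesenchyme markers were lower than in vehicle in 5 of 6 batches (381499 against 173854 in batch 1, and higher only in batch 4), with COL1A1 at a log2 fold change of -0.93 ± 0.26 that was not called. The smooth muscle and melanocyte sums were also lower in 5 of 6 batches, and the endothelium and dividing-cell sums were higher in 5 of 6. The exception was batch 2 for endothelium and batch 4 for the other classes. These are the batches whose vehicle libraries stood apart. A sum follows its most abundant members, and the members of a class did not all move alike. For endothelium, KDR (269 to 5999 counts) had a log2 fold change of 0.47 ± 0.27. CDH5 (at most 56 counts) had 0.71 ± 0.67 and PECAM1 (at most 45) -0.30 ± 0.53. Among melanocyte markers, PMEL had -0.46 ± 0.18 and MLANA -0.64 ± 0.71. TYR had -0.01 ± 0.25, DCT 0.11 ± 0.51 and MITF 0.14 ± 0.12. The part of these shifts in the SLC26A4, ANO1 and DUOX2 differences was not tested. The cell type that carried SLC26A4 or ANO1 was not tested.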

How the data were processed

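RNA of 24 whole cultures was sequenced on an Illumina NovaSeq instrument. Per the labels and the submitters' processing notes, adapters were trimmed with Trimmomatic 0.30, and reads were aligned to GRCh38.p14 and counted per gene. The aligner, counter and strandedness are not given in the sources used here. The deposited values are raw counts per gene, and no library was pooled by the authors. The table has 36468 entries, of which 13161 are unnamed NewGene loci.

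Entries with a total count of at least 10 (29377) were fitted in edgeR 4.0.16 (R 4.3.3, TMM normalization, robust quasi-likelihood test) with batch and treatment as terms, over all 24 libraries. Adjustment was by Benjamini-Hochberg over all entries, and a call needed both an adjusted p below 0.05 and a log2 fold change larger than 1 in size. Standard errors were derived from the F statistic and the log2 fold change. DESeq2 1.42.0 was run beside it, and its size factors gave the normalized counts. Levels are log2(normalized count + 1).

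Batch numbers come from the labels, which name a shared differentiation batch. The median correlation of libraries of the same batch was 0.56 over 36 pairs, and -0.13 over 180 pairs of different batches, with the group means removed. The lowest same-batch value was -0.05.

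The 9 genes and the lists were chosen with earlier results of these data known. The named genes were these 9, listed genes called against vehicle, up to 3 rises and 3 falls per comparison (mean count 10 or more, 1 direction in 6 batches), the 8 genes most like SLC26A4 and 1 for each other gene. Results that need a withheld item are not reported here. SLC26A11 had no entry in the promoter table used. The annotated spans of 7 of the 9 genes (all but SLC26A2 and SLC26A11) overlap another annotated gene, such as SLC12A5-AS1 for SLC12A5, so that shared reads are uncertain. The fit was tested on simulated data that held no batch effect. Changes were placed only in genes with higher mean counts than SLC26A4, DUOX2 or DUOXA1. The simulation therefore did not test the fit for genes with such low counts or for spread between batches. Replicates are batches of 1 line. The batch term takes out the spread between differentiations. The p-values therefore measure treatment differences against how far they vary from batch to batch.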

Additional observations from a re-analysis of the deposited data

Results flagged for a closer look

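In the 36 sets of 6 libraries (9 genes in 4 groups), 10 held a library whose gap to the nearest of the others, divided by the whole range of the set, exceeded Dixon's critical value. Chance alone flags about 1 in 20 such sets. In 5 of them the library was from batch 1. ANO1 stood at a level of 5.07 in vehicle, ANO6 at 12.4 in both vehicle (12.4011) and TGF-β (12.3958), SLC12A5 at 7.96 in vehicle and SLC26A2 at 10.8 in TGF-β. In 4 of them it was from batch 2. SLC26A11 stood at 9.97 in TGF-β and 9.69 in IL-6, and SLC26A4 at 4.85 in IL-4+IL-13 and at 0 in TGF-β. The remaining library was the vehicle library of batch 3, in which SLC26A4 had a count of 0 and a level of 0. Levels are log2(normalized count + 1). The treated libraries of batch 2 also had the highest sums of the dividing-cell markers MKI67 and TOP2A, between 8706 and 11968 normalized counts against 1471 in the vehicle library of that batch, and the part of these cells in the SLC26A4 and SLC26A11 values was not tested.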

How the results depend on the processing

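The log2 fold change of SLC26A4 under IL-4+IL-13 stayed between 4.44 and 5.55 over 16 alternatives. ANO1 stayed between 1.01 and 1.71, but its call was lost without the replicate block, in the 18 libraries without IL-6, and on leaving out any of batches 1, 3, 4, 5 and 6, so that 1 of the 9 genes was then called. Since both genes were selected on this contrast, these values describe the fit and support nothing. Without the replicate block, that is, without the pairing by batch, TGF-β gave 0 calls in place of 42 and IL-4+IL-13 gave 13 in place of 109, of which 1 was a listed anion gene. In the 18 libraries without IL-6 the calls were 6 and 72, with 1 listed gene called for IL-4+IL-13. DESeq2 called 234 entries with TGF-β, 120 with IL-6 and 292 with IL-4+IL-13, and 1 listed gene each with TGF-β and IL-6. With no threshold on the fold change there were 102 calls with TGF-β and 186 with IL-4+IL-13, and 1 listed gene for TGF-β. Leaving out 1 batch at a time gave 1 to 40 calls for TGF-β (1 without batch 3 and 1 without batch 5, 15 without batch 4 and 19 without batch 6) and 60 to 122 for IL-4+IL-13 (68, 60, 65 and 68 without batches 1, 3, 5 and 6). Over the same settings, 0 to 1 listed genes were called with TGF-β (1, SLC4A5, without batch 6), 1 to 2 with IL-4+IL-13 (1 without batch 1 or batch 3), and 1 to 2 of the 9 genes with IL-4+IL-13. After seeing the data, 3 alternatives were added. Without the vehicle libraries of batches 2 and 4, TGF-β gave 26 calls. In batches 3 to 6 it gave 102, and 1 listed gene was called with IL-4+IL-13. Without the vehicle library of batch 2 no count moved by over 1.5 times. The causes of these differences were not tested. Small log2 fold changes changed sign between settings, as for SLC26A6 with TGF-β, which kept its sign in 10 of 16. At 0 to 14 reads of SLC26A4 per library outside IL-4+IL-13, differences among vehicle, TGF-β and IL-6 are limited by depth.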
